A study of Homo sapiens with 18 samples.

Results

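The genes described here are the 6 human neutrophil-attracting CXC chemokines CXCL1, CXCL2, CXCL3, CXCL5, CXCL6 and CXCL8, taken by symbol from a table of 28266 gene rows. All 6 were in the table and all 6 passed the filter on low counts, which kept 14341 genes. The rule that names them uses family membership and no measured value, though the family was picked with earlier results of these data known. A further ELR chemokine gene, PPBP, is given beside them. Levels are given as CPM, that is counts scaled to the same library size, with TMM scaling between libraries. Means are given ± SD of 3 libraries.

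Cells were IMR90 ER:RAS, a line of human lung fibroblasts that carries oncogenic RAS fused to the ligand-binding part of the oestrogen receptor. All 6 groups of 3 libraries shared this fusion, controls included, and the labels call the genotype wild type. Cells were kept for 7 days after 100 nM 4-hydroxytamoxifen (4OHT), which activates the fusion and induces oncogene-induced senescence (OIS), or after DMSO. DMSO, IMP1088 at 300 nM or DDD86481 at 1.5 µM was then given for 3 days, and RNA was collected on day 10. Both compounds inhibit the N-myristoyltransferases (NMTi), enzymes that attach the fatty acid myristate to proteins. Below, senescent cells are those given 4OHT and control cells those given DMSO first. As no group received 4OHT without the fusion, 4OHT and RAS activation cannot be told apart. Labels number the replicates, and the study's supplement describes the replicates of these treatments as independent experiments.

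Chemokines with the ELR motif, a glutamate-leucine-arginine run ahead of the first cysteines, are small secreted proteins. They bind CXCR1, CXCR2 or both on neutrophils and draw these cells towards their source. In fibroblasts their genes are typically quiet and are switched on by interleukin-1, by TNF and by RAS signalling, largely through NF-kappaB, C/EBP-beta and AP-1, while their mRNAs are short-lived. In senescent cells they are part of the senescence-associated secretory phenotype (SASP).

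The 6 genes lie within 359 kb of chromosome 4 (chr4:73740569-74099195, GRCh38.p14), where 9 protein-coding genes are annotated. CXCL8, CXCL6 and CXCL1 are on the plus strand and CXCL5, CXCL3 and CXCL2 on the minus strand. The 120 bases before each RefSeq gene start are shown because all 6 hold the run GGAATTTCC, given in capitals, which has the form of an NF-kappaB binding site. It was found as the longest run that the 250 bases before all 6 starts have in common. Sequences are from RefSeq, read 5′ to 3′ along the gene's strand.
CXCL1 (chr4:73869273-73869392, plus strand): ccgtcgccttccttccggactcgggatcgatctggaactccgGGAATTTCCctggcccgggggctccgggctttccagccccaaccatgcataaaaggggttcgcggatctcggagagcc
CXCL2 (chr4:74099196-74099315, minus strand): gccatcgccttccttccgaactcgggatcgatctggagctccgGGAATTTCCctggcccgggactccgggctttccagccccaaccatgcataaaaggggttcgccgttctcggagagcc
CXCL3 (chr4:74038690-74038809, minus strand): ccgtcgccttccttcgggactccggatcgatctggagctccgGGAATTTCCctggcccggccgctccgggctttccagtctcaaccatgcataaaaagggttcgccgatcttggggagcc
CXCL5 (chr4:73998678-73998797, minus strand): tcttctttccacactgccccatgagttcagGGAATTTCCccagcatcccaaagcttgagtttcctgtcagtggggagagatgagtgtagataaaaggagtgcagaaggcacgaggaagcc
CXCL6 (chr4:73836558-73836677, plus strand): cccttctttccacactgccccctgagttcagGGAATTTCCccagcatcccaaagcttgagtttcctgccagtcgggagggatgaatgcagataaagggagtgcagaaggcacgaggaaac
CXCL8 (chr4:73740449-73740568, plus strand): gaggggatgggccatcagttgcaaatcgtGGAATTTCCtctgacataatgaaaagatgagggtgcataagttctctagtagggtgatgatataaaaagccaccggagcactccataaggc

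These stretches fell into groups by likeness. CXCL1 and CXCL2 matched at 93.4% of 121 aligned positions, CXCL1 and CXCL3 at 90.8% of 120 and CXCL2 and CXCL3 at 88.4% of 121. CXCL5 and CXCL6 formed the other close pair, with 90.9% of 121. CXCL8 matched the other 5 at 43.6% to 48.8%. The shared run lay between 91 and 69 bases before the start, and 0.413% of 35116 RefSeq windows of 250 bases before a gene start held it. All motifs were searched on both strands of these windows. The letters TGANTCA, the form of an AP-1 site, were found before CXCL8 but not in the windows of the other 5 genes, and 6.57% of windows held them. GGGCGG, a GC box, was found before CXCL1, CXCL3 and CXCL6 and in 42.6% of windows. A match of letters is a description and not a measured site.

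Library totals ran from 16143716 to 23189950 counts, and every gene of the 6 had at least 12 counts in every library. The first principal component, with 80.8% of the variance, separated senescent from control libraries. Among the controls, DMSO replicate 3 stood apart on the third component, with a score of 57.3 against 14.8 and 27.8 for the other two. It also held the highest level of the DMSO controls for all 6 chemokines, so results that change without it are given below. Of 10 fibroblast markers, 8 were lower and 1, VIM, was higher in senescent than control cells with DMSO. Of all genes tested, 68.5% were called in either direction and 32.5% higher. The summed level of the fibroblast markers ran from 16646 to 17064 CPM against 24831 to 31466 CPM. Markers of neutrophils were near 0: 5 genes summed to between 0.0613 and 0.702 CPM in every library, with FCGR3B at 0 throughout. Leukocyte markers summed to between 0.470 and 1.68 CPM, higher with senescence and DMSO (1.65 to 1.68) than in DMSO controls (0.483 to 0.766). Of 5 leukocyte genes, 2 were tested and 1 was called higher in this comparison. The 1 neutrophil gene tested was called lower, where 68.5% of all genes were called in either direction. Endothelial markers went from 1.17 to 1.73 CPM in DMSO controls to 10.3 to 10.7 CPM with senescence and DMSO, and epithelial ones from 28.0 to 39.3 CPM, mostly KRT19, to 1.15 to 1.49 CPM, with SFTPC and SFTPB at 0. In senescent cells with an inhibitor the fibroblast sum was between 11559 and 12347 CPM. The fibroblast genes did not fall as a set. Of 10, 3 were called higher and 6 lower with each inhibitor. Of all genes, 44.4% were called with IMP1088 and 43.2% with DDD86481. The part of these markers in the chemokine results was not tested. Bulk RNA cannot tell fewer expressing cells from less RNA per cell.

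The first question was how the chemokines stood in senescent cells without an inhibitor. All 6 rose, against 32.5% of all genes tested that were called higher (68.5% in either direction), and in all 6 the senescent libraries lay above every control library (32.4% of all genes did so). Their median log2 fold change was 7.58, against -0.05 over all genes. Summed over the 6 genes, the signal went from 68.9 ± 33.5 to 13653 ± 991 CPM, or from 0.00733% ± 0.00350 to 1.23% ± 0.0942 of all counts. The rises were unequal, from 5.91-fold for CXCL6 to 2032-fold for CXCL5.

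CXCL5, also called ENA-78, had the steepest rise and ranked 11th from the top of 14341 genes. DMSO controls held 1.77, 2.53 and 3.38 CPM and senescent libraries 5692, 5015 and 4758 CPM. The log2 fold change was 10.99 ± 0.27 (SE, adjusted p = 5.45e-18, edgeR quasi-likelihood test). The gap between the highest control and the lowest senescent library was wider for CXCL5 than the spread within either group.

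CXCL3, known as GRO-gamma, stood at 0.846, 0.885 and 1.74 CPM in DMSO controls and at 418, 401 and 444 CPM in senescent libraries. Its log2 fold change was 8.54 ± 0.24 (edgeR adjusted p = 4.77e-17). CXCL2, or GRO-beta, went from 0.484, 0.684 and 1.09 CPM to 86.0, 97.2 and 92.1 CPM. This was 6.95 ± 0.19 on the log2 scale (edgeR adjusted p = 2.00e-17). Neither gene had a control library within reach of its senescent ones.

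CXCL8, which encodes interleukin-8, the best known neutrophil attractant, rose by a like amount. DMSO controls gave 13.1, 21.5 and 36.7 CPM and senescent libraries 7301, 7435 and 6238 CPM. The log2 fold change was 8.21 ± 0.39 (edgeR adjusted p = 1.47e-13). CXCL1, or GRO-alpha, rose less. Its levels were 18.5, 27.0 and 50.9 CPM in DMSO controls and 900, 974 and 958 CPM in senescent libraries, a log2 fold change of 4.89 ± 0.32 (edgeR adjusted p = 2.49e-11). The spread among controls was wide for both genes, with DMSO replicate 3 highest and replicate 1 lowest.

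CXCL6, or granulocyte chemotactic protein 2, rose least. The controls held 5.08, 8.73 and 11.8 CPM and the senescent libraries 47.7, 50.3 and 52.2 CPM, a log2 fold change of 2.56 ± 0.21 (edgeR adjusted p = 1.01e-09). Its upstream stretch was nearly that of CXCL5. These genes gave the smallest and the largest rise of the family, and the part of upstream sequence in the rises was not tested. The plot of levels by library shows all 6 genes with a gap between control and senescent libraries that no single library closed.

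**Figure D1:**
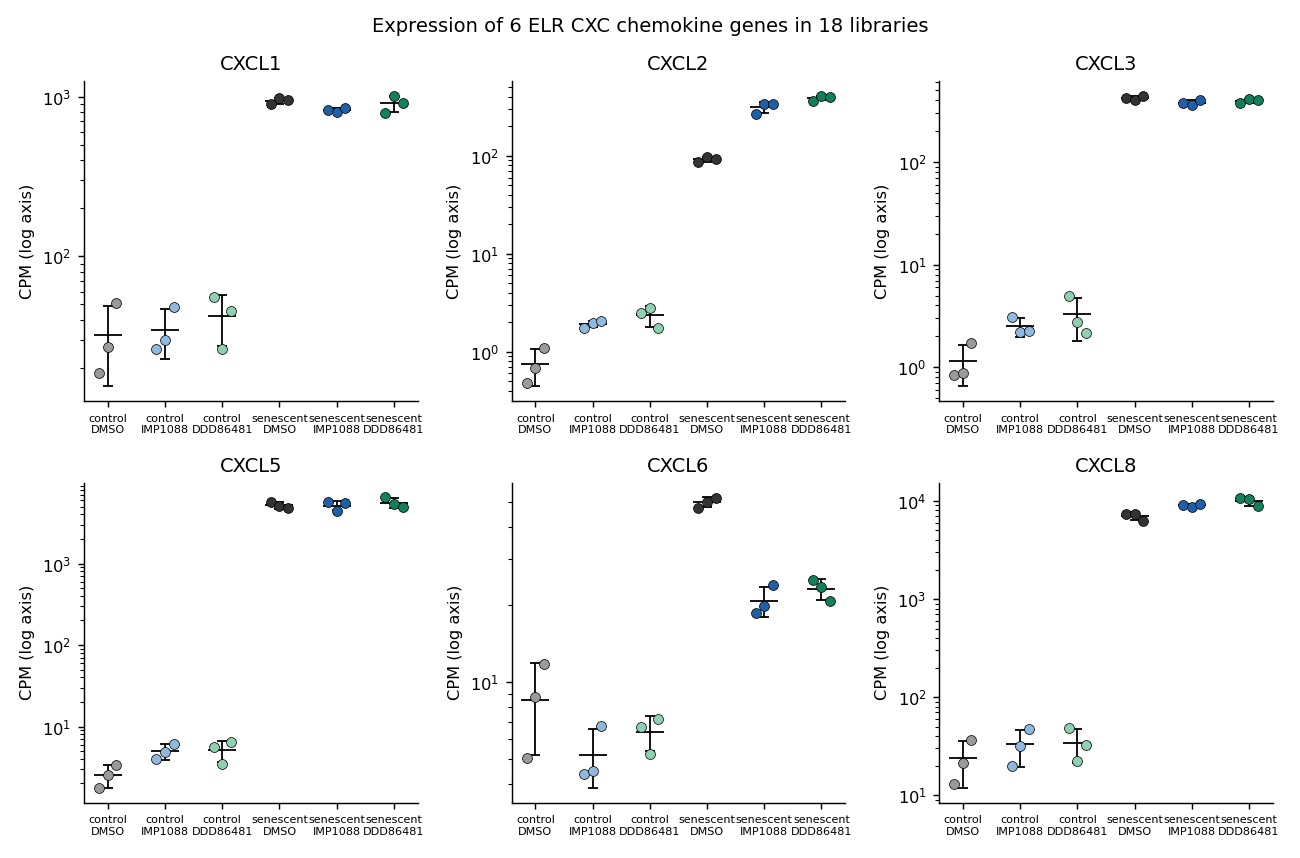
CPM of each chemokine gene (log axis, 1 panel per gene) in the 18 libraries by group; points are libraries, horizontal bars the mean and error bars the SD of 3. Every senescent library lies above every control library for all 6 genes, and in senescent cells CXCL2 is higher (314 and 391 against 91.8 CPM) and CXCL6 lower (20.7 and 23.0 against 50.1 CPM) with either inhibitor than with DMSO.

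Because CPM favours long transcripts, levels were compared between genes per kb of the longest annotated transcript. On this scale the make-up of the family turned over. In DMSO controls CXCL1 held 57.6% ± 2.18 of the summed CPM per kb, CXCL8 24.9% ± 0.928 and CXCL6 12.1% ± 1.56, while CXCL2, CXCL3 and CXCL5 each held less than 3%. In senescent cells with DMSO, CXCL8 held 51.2% ± 1.82, CXCL5 31.3% ± 1.66 and CXCL1 11.9% ± 1.12, and CXCL6 was down to 0.485% ± 0.0538. With union exon length in place of transcript length the share of CXCL5 in these cells was 36.5% and that of CXCL8 46.6%, in the same order.

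**Figure D2:**
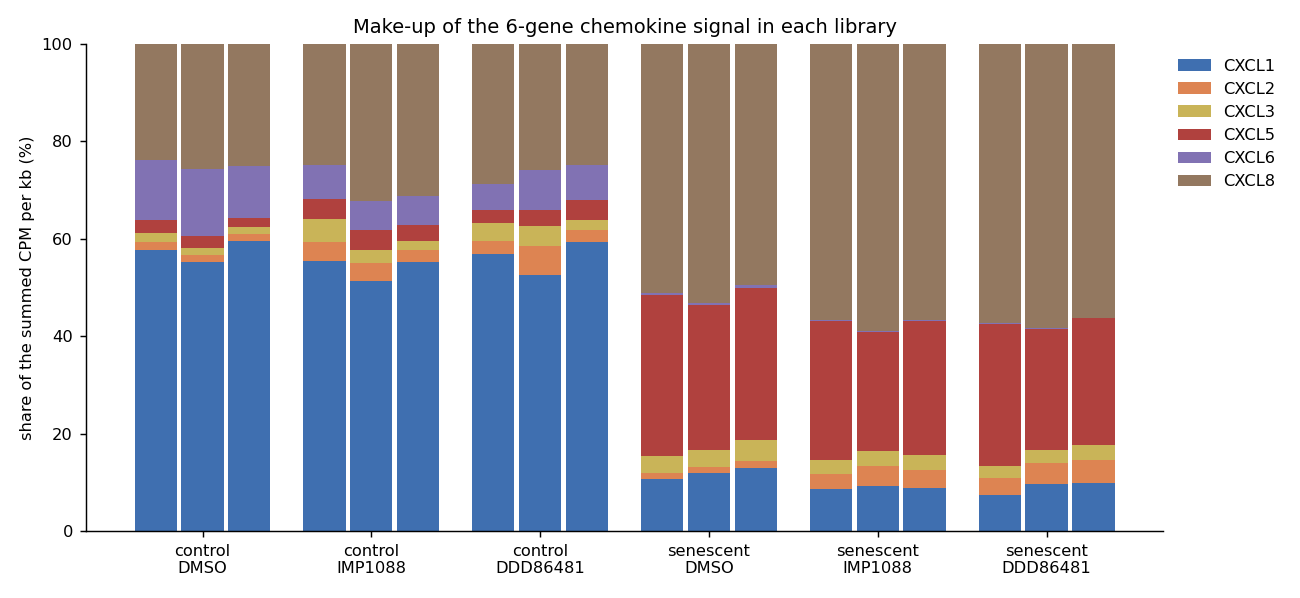
Share of each gene in the summed CPM per kb of the 6 chemokine genes (y axis, percent), 1 bar per library, by group. CXCL1 makes up 57.6% in DMSO controls, and CXCL8 and CXCL5 make up 51.2% and 31.3% in senescent cells with DMSO.

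The next question was whether NMT inhibition changed chemokine transcripts once senescence was established. It did so for 2 of the 6 with IMP1088, CXCL2 upwards and CXCL6 downwards, where 44.4% of all genes tested were called in either direction (20.6% higher and 23.9% lower). DDD86481 gave calls for the same 2 genes with the same signs, where 43.2% of all genes were called (20.1% higher and 23.1% lower). A share of 2 in 6 is thus no greater than that over all genes. Median log2 fold changes of the 6 were -0.08 and 0.03, against -0.04 and -0.04 over all genes. Both inhibitors were set against the same DMSO libraries, and their doses differed, so that their values stand side by side without a comparison between them.

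CXCL2 had 86.0, 97.2 and 92.1 CPM with DMSO, 270, 335 and 336 CPM with IMP1088 and 366, 406 and 399 CPM with DDD86481. Each inhibitor's libraries all lay above those with DMSO. IMP1088 raised it by 1.77 ± 0.12 on the log2 scale, or 3.42-fold (edgeR adjusted p = 1.26e-09), and DDD86481 by 2.09 ± 0.12, or 4.25-fold (edgeR adjusted p = 1.87e-10). These changes ranked 291st and 171st from the top of 14341 genes.

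CXCL6 went the other way. It had 47.7, 50.3 and 52.2 CPM with DMSO, 18.6, 19.7 and 23.8 CPM with IMP1088 and 24.8, 23.5 and 20.7 CPM with DDD86481, again with no overlap between DMSO and either inhibitor. It fell by 1.27 ± 0.20 (edgeR adjusted p = 2.78e-05) and fell by 1.12 ± 0.20 (edgeR adjusted p = 0.000114) on the log2 scale. Even so, its libraries stayed above those of all control cells, where the highest reading was 11.8 CPM.

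CXCL5 and CXCL3 gave no call. CXCL5 had 5692, 5015 and 4758 CPM with DMSO, 5620, 4374 and 5454 CPM with IMP1088 and 6498, 5305 and 4941 CPM with DDD86481, and the groups overlapped. The 95% intervals of its log2 fold change were -0.35 to 0.35 with IMP1088 and -0.23 to 0.46 with DDD86481 (edgeR adjusted p = 0.997 and 0.611). CXCL3 had 418, 401 and 444 CPM with DMSO, 373, 362 and 402 CPM with IMP1088 and 373, 411 and 400 CPM with DDD86481, with intervals of -0.47 to 0.17 and -0.42 to 0.23 (edgeR adjusted p = 0.455 and 0.656). A change of 2-fold lay outside all 4 of these intervals.

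CXCL8 and CXCL1 depended on how the spread was estimated. CXCL8 had 7301, 7435 and 6238 CPM with DMSO, 9179, 8730 and 9308 CPM with IMP1088 and 10609, 10372 and 8825 CPM with DDD86481, so that both inhibitor groups lay above DMSO. In the fit of all 18 libraries the log2 fold changes were 0.38 ± 0.28 and 0.51 ± 0.28, with intervals of -0.21 to 0.96 and -0.08 to 1.09 (edgeR adjusted p = 0.295 and 0.155). When only the groups compared entered the fit, the values were 0.41 and 0.54 and both passed (edgeR adjusted p = 2.98e-05 and 0.000303). The fit of all groups takes in the control libraries, in which CXCL8 ranged from 13.1 to 48.2 CPM.

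CXCL1 had 900, 974 and 958 CPM with DMSO and 822, 807 and 847 CPM with IMP1088, which did not overlap, and 795, 1014 and 911 CPM with DDD86481, which overlapped with DMSO. Its log2 fold changes were -0.19 ± 0.27 and -0.06 ± 0.27 (edgeR adjusted p = 0.585 and 0.880). With only the groups compared, the IMP1088 value was -0.16 and passed (edgeR adjusted p = 0.0294). Members with no overlap between DMSO and IMP1088 were thus CXCL1, CXCL2, CXCL6 and CXCL8, 4 of 6, where 61% of all genes tested showed none. With DDD86481 they were CXCL2, CXCL6 and CXCL8, 3 of 6, where 52.6% did.

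**Figure D3:**
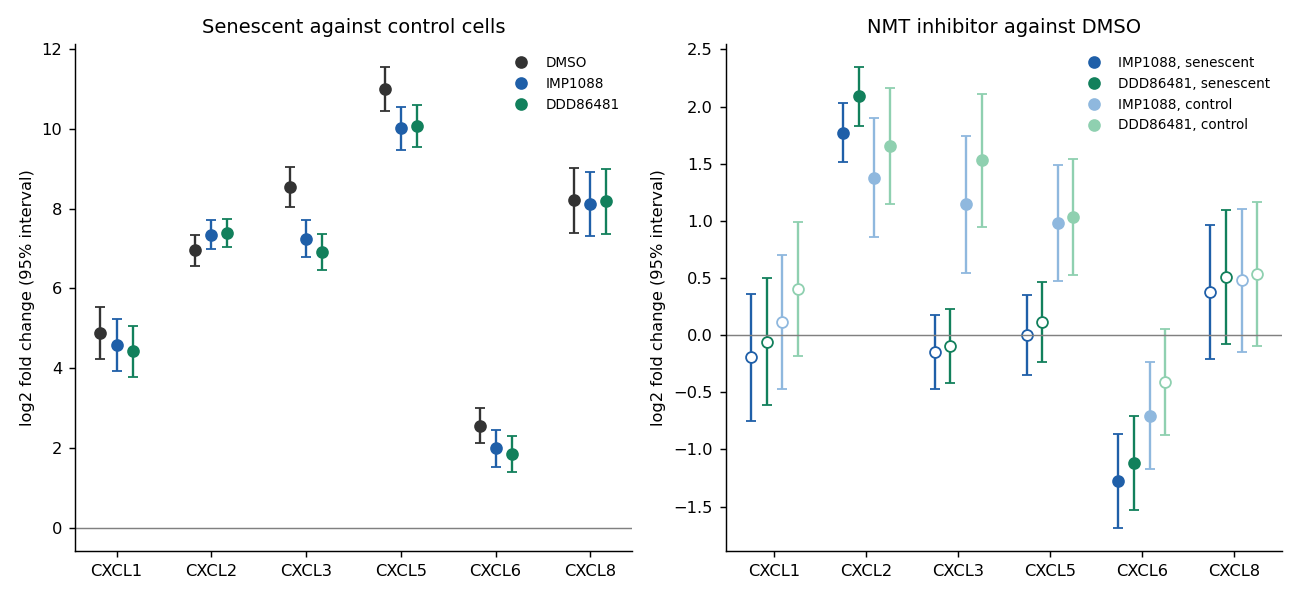
Log2 fold changes of the 6 chemokine genes with 95% intervals: left, senescent against control cells under DMSO, IMP1088 or DDD86481; right, each inhibitor against DMSO in senescent or control cells. Filled points had an edgeR adjusted p under 0.05. On the right, CXCL2 is above 0 in all 4 comparisons, and CXCL3 and CXCL5 are above 0 in control cells with intervals that span 0 in senescent cells.

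Control cells showed whether the same transcripts moved without 4OHT. With IMP1088, 3 of the 6 rose and 1 fell, where 16.3% of all genes tested were called higher and 17.4% lower (33.7% in either direction). With DDD86481, the same 3 rose and none fell, where 17.8% were called higher and 18.7% lower (36.6% in either direction). With only the groups compared in the fit, the call for CXCL6 was lost and the same 3 genes rose with each inhibitor, while the share of all genes called fell to 18.7% with IMP1088 and 19.7% with DDD86481 (8.42% and 8.79% higher). The genes that rose were CXCL2, CXCL3 and CXCL5, the 3 with the lowest CPM per kb in DMSO controls. Their counts there were low, from 12 to 68 per library. Markers of other cells moved in the same libraries: the epithelial sum went from 28.0 to 39.3 CPM with DMSO to 6.90 to 7.63 CPM with IMP1088 and 6.33 to 7.04 CPM with DDD86481, and the endothelial sum from 1.17 to 1.73 CPM to 2.82 to 3.41 and 3.24 to 3.97 CPM, with CDH5 at 0 with either inhibitor. The endothelial genes did not rise as a set. Of 3 tested, 1 was called higher and 1 lower with IMP1088, and 1 higher with DDD86481 (33.7% and 36.6% of all genes called). Their median log2 fold changes were -1.69 and -0.23. With IMP1088, 1 to 2 passed when a single library was dropped. Their part in the chemokine results was not tested.

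CXCL2 in control cells had 0.484, 0.684 and 1.09 CPM with DMSO, 1.76, 1.96 and 2.04 CPM with IMP1088 and 2.50, 2.80 and 1.73 CPM with DDD86481. It rose by 1.38 ± 0.25 (edgeR adjusted p = 0.000265) and by 1.65 ± 0.24 (edgeR adjusted p = 3.15e-05) on the log2 scale. CXCL3 had 0.846, 0.885 and 1.74 CPM with DMSO, 3.11, 2.18 and 2.23 CPM with IMP1088 and 4.96, 2.74 and 2.15 CPM with DDD86481. Its rises were 1.15 ± 0.29 (edgeR adjusted p = 0.00442) and 1.53 ± 0.28 (edgeR adjusted p = 0.000275). Neither gene's inhibitor libraries overlapped with those of DMSO.

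CXCL5 had 1.77, 2.53 and 3.38 CPM with DMSO, 3.96, 4.85 and 6.17 CPM with IMP1088 and 5.58, 3.47 and 6.40 CPM with DDD86481, also without overlap. It rose by 0.98 ± 0.24 (edgeR adjusted p = 0.00391) and 1.04 ± 0.24 (edgeR adjusted p = 0.00254). These were the members that did not overlap with DMSO, 3 of 6 with each inhibitor, against 41.4% of all genes with IMP1088 and 43.4% with DDD86481.

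CXCL6 had 5.08, 8.73 and 11.8 CPM with DMSO, 4.36, 4.50 and 6.75 CPM with IMP1088 and 6.68, 5.27 and 7.15 CPM with DDD86481, and both groups overlapped with DMSO. The IMP1088 libraries were taken as paired with the DMSO library of the same number, and CXCL6 was lower with IMP1088 in each pair. It fell by 0.70 ± 0.23 with IMP1088 (edgeR adjusted p = 0.0211). This call was kept with the replicate number as a block, but it did not pass when single libraries were dropped in 4 of 6 cases. Without DMSO replicate 3 the change was -0.41 (adjusted p = 0.149), without replicate 2 -0.67 (0.0551), and without IMP1088 replicate 1 or 2 it was -0.59 (0.0930) or -0.60 (0.0838). With DDD86481 the change was -0.41 ± 0.22 (edgeR adjusted p = 0.159), which passed without DMSO replicate 1 (-0.67, adjusted p = 0.00464).

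CXCL1 and CXCL8, the members with the highest CPM per kb in control cells, gave no call there. CXCL1 had 18.5, 27.0 and 50.9 CPM with DMSO, 26.0, 29.7 and 48.2 CPM with IMP1088 and 55.4, 26.2 and 45.1 CPM with DDD86481. CXCL8 had 13.1, 21.5 and 36.7 CPM with DMSO, 20.0, 32.0 and 46.8 CPM with IMP1088 and 48.2, 22.1 and 32.4 CPM with DDD86481. As groups, all overlapped for both genes. Against the DMSO library of the same number, to which the IMP1088 libraries were taken as paired, CXCL8 was higher with IMP1088 in 3 of 3 pairs and CXCL1 in 2 of 3. With the replicate number as a block the values with IMP1088 were 0.49 ± 0.30 for CXCL8 (edgeR adjusted p = 0.227) and 0.14 ± 0.26 for CXCL1 (edgeR adjusted p = 0.719), and neither was called. The log2 fold changes of CXCL1 were 0.12 ± 0.28 and 0.40 ± 0.28 (edgeR adjusted p = 0.781 and 0.273), and those of CXCL8 were 0.48 ± 0.30 and 0.54 ± 0.30 (edgeR adjusted p = 0.229 and 0.172). Without DMSO replicate 3, CXCL8 passed with both inhibitors (0.93, adjusted p = 0.0140 and 0.99, adjusted p = 0.00965) and CXCL1 with DDD86481 (0.90, adjusted p = 0.00658).

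Whether an inhibitor acted differently in senescent and control cells was tested directly by an interaction term. CXCL3 and CXCL5 differed with both inhibitors: they rose in control cells and were not called in senescent cells. These were 2 of 6 genes called lower, where 14.2% of all genes were with IMP1088 and 15.9% with DDD86481 (26.2% and 30.3% in either direction). For CXCL3 the difference, senescent minus control, was -1.30 ± 0.33 with IMP1088 (edgeR adjusted p = 0.00678) and -1.62 ± 0.32 with DDD86481 (edgeR adjusted p = 0.00101). For CXCL5 it was -0.98 ± 0.29 (edgeR adjusted p = 0.0189) and -0.92 ± 0.30 (edgeR adjusted p = 0.0240). Dropping single libraries cost the CXCL5 call in 1 of 12 cases with IMP1088 (-0.78, adjusted p = 0.0716, without control IMP1088 replicate 3). With DDD86481 it did so in 5 of 12: without control DMSO replicate 1 (-0.67, adjusted p = 0.0684) or 2 (-0.88, adjusted p = 0.0527), control DDD86481 replicate 1 (-0.83, adjusted p = 0.0640) or 3 (-0.69, adjusted p = 0.108), or senescent DMSO replicate 1 (-0.84, adjusted p = 0.0549).

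For CXCL2 the difference between the states was 0.39, with an interval of -0.22 to 1.00, with IMP1088 and 0.44, from -0.17 to 1.04, with DDD86481 (edgeR adjusted p = 0.337 and 0.264). The rise of CXCL2 was therefore not shown to differ between senescent and control cells. For CXCL6 the differences were -0.57 ± 0.30 (edgeR adjusted p = 0.165) and -0.71 ± 0.30 (edgeR adjusted p = 0.0737). Without control DMSO replicate 3 both passed (-0.87, adjusted p = 0.0188 and -1.01, adjusted p = 0.00606), and CXCL1 also passed with DDD86481 (-0.95, adjusted p = 0.0243). In the fit of all libraries the differences were -0.31 and -0.46 for CXCL1 and -0.10 and -0.03 for CXCL8, none called (edgeR adjusted p = 0.582, 0.383, 0.876 and 0.971).

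Senescence still separated the groups when cells had an inhibitor. All 6 genes were called higher in senescent than control cells with IMP1088, where 36.2% of all genes were (74.1% in either direction), and with DDD86481, where 36.1% were (74% in either direction). CXCL5 had log2 fold changes of 10.01 ± 0.25 and 10.07 ± 0.25 (edgeR adjusted p = 8.99e-18 and 8.74e-18), and CXCL8 of 8.10 ± 0.39 and 8.18 ± 0.39 (edgeR adjusted p = 1.60e-13 and 1.50e-13). CXCL6 was again the least changed, with 1.99 ± 0.22 and 1.85 ± 0.22 (edgeR adjusted p = 8.24e-08 and 1.85e-07). Values of CXCL1, CXCL2 and CXCL3 were 4.58, 7.35 and 7.24 with IMP1088 and 4.42, 7.39 and 6.91 with DDD86481.

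Ratios of counts within a library do not depend on scaling between libraries, and they traced these shifts. CXCL2 stood at 0.0972 ± 0.00231 counts per count of CXCL1 in senescent cells with DMSO, 0.380 ± 0.0461 with IMP1088 and 0.433 ± 0.0304 with DDD86481. Per count of CXCL3 it was 0.219 ± 0.0207, 0.828 ± 0.102 and 0.989 ± 0.00855, so that CXCL2 and CXCL3 had nearly equal counts with DDD86481. In DMSO controls that ratio was 0.658 ± 0.104.

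CXCL5 per CXCL6 was 0.309 ± 0.0350 in DMSO controls, 0.967 ± 0.0972 and 0.797 ± 0.123 in controls with IMP1088 and DDD86481, 103 ± 14.4 in senescent cells with DMSO, and 251 ± 44 and 242 ± 18.2 in senescent cells with IMP1088 and DDD86481. In both states the inhibitor libraries lay above the DMSO libraries of that state. CXCL8 per CXCL1 was 0.743 ± 0.0483 in DMSO controls and 7.42 ± 0.822 in senescent cells with DMSO. It ran from 10.8 to 11.2 in the 3 senescent libraries with IMP1088 and from 9.69 to 13.3 in the 3 with DDD86481. A ratio shows unequal change, not which of its members changed.

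**Figure D4:**
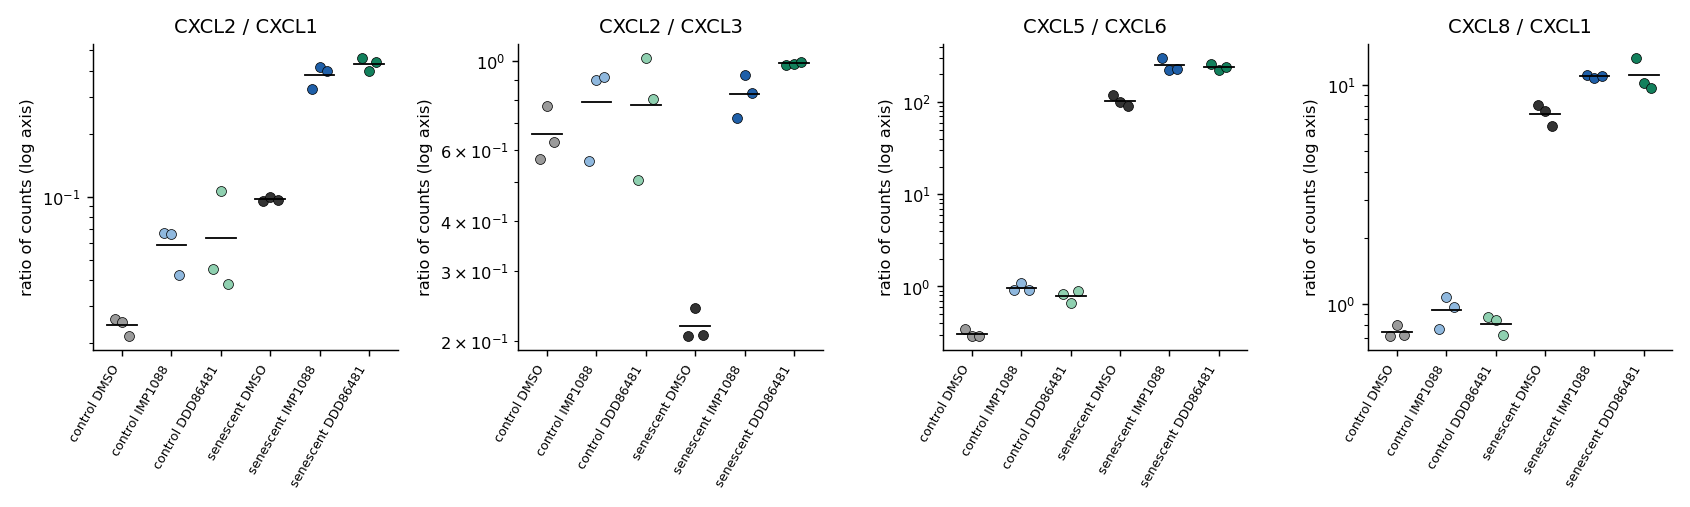
Ratios of counts within each library (log axes) for 4 pairs of chemokine genes, by group; points are libraries and lines group means. In senescent cells CXCL2 per CXCL3 goes from 0.219 with DMSO to 0.828 with IMP1088 and 0.989 with DDD86481, while CXCL5 per CXCL6 goes from 103 to 251 and 242.

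The order of groups by mean level summarised each gene. CXCL2 went from control DMSO through control IMP1088, control DDD86481, senescent DMSO and senescent IMP1088 to senescent DDD86481, and only the control inhibitor groups overlapped as neighbours. For CXCL8 the order was the same, with overlap among all control neighbours and between senescent IMP1088 and DDD86481. CXCL1, CXCL3 and CXCL5 had senescent groups whose neighbours all overlapped. CXCL6 was alone in having its highest control mean with DMSO, 8.53 ± 3.36 CPM, against 5.20 ± 1.34 CPM with IMP1088 and 6.36 ± 0.981 CPM with DDD86481, and these neighbours overlapped.

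How reads that match more than 1 family member were counted was not given in the sources used here. Of the 75-base windows in its longest transcript, CXCL2 shared 2.50% exactly with CXCL1 or CXCL3, CXCL3 shared 1.47% with CXCL2 and CXCL1 shared 0.273% with CXCL2. Allowing 2 mismatches, 26.5% of CXCL2 windows, 20.3% of CXCL1 windows and 3.45% of CXCL3 windows were like another member. CXCL6 and CXCL8 shared no window with any gene, and CXCL5 shared 0.127%, with GLYR1. In senescent cells CXCL2 rose with NMTi while the intervals for CXCL1 and CXCL3 spanned 0 in the fit of all libraries. With only the groups compared, CXCL1 passed as lower with IMP1088 (-0.16, edgeR adjusted p = 0.0294). The part of shared reads in these values was not tested. CXCL5 has 17.3% of its exonic bases under a long non-coding RNA on the opposite strand, and CXCL6 has 4.61% in common with the pseudogene PPBPP1 on its own strand. As the strand setting of the counting was not given, these counts are uncertain to that extent.

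Neighbouring genes of the chromosome 4 cluster were examined after the chemokine values were known. PPBP, the precursor of platelet basic protein and itself an ELR chemokine, had 0, 0 and 0.149 CPM in DMSO controls, all at or under 3 counts, and 1.61, 0.872 and 0.989 CPM in senescent libraries (edgeR adjusted p = 5.89e-06). It reached 2.37, 2.07 and 2.24 CPM with IMP1088 (log2 fold change 0.95 ± 0.35, edgeR adjusted p = 0.0362, not passed in 5 of 6 cases when a single library was dropped, at worst 0.79 with adjusted p = 0.129 lacking senescent DMSO replicate 2) and 2.29, 1.31 and 1.72 CPM with DDD86481 (0.62 ± 0.36, edgeR adjusted p = 0.182). PF4, which encodes platelet factor 4 and lacks the ELR motif, had 0.0735 ± 0.0645 CPM in DMSO controls and 1.13 ± 0.183 CPM in senescent cells (edgeR adjusted p = 6.01e-06). Within 500 kb of the cluster, 4 of 9 other protein-coding genes were tested. EREG and AREG, ligands of the epidermal growth factor receptor, rose in senescence by 5.05 ± 0.15 (edgeR adjusted p = 1.66e-16) and 6.56 ± 0.30 (edgeR adjusted p = 7.59e-14), MTHFD2L rose by 1.73 ± 0.15 (edgeR adjusted p = 3.23e-09) and ANKRD17 had 0.26 ± 0.16 (edgeR adjusted p = 0.156). In senescent cells AREG fell by 0.88 ± 0.23 with IMP1088 and by 1.02 ± 0.23 with DDD86481 (edgeR adjusted p = 0.00330 and 0.00104). EREG fell by 0.42 ± 0.13 with IMP1088 (edgeR adjusted p = 0.0104) and was not called with DDD86481 (-0.27, edgeR adjusted p = 0.0941). MTHFD2L and ANKRD17 were not called there, where 44.4% and 43.2% of all genes were. In control cells EREG, AREG and ANKRD17 were called higher with each inhibitor (33.7% and 36.6% of all genes called).

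The receptors were not expressed at a level these libraries could show. CXCR1 and the scavenging receptor ACKR1 had 0 counts in all 18 libraries. CXCR2 had 0 counts in 15 of them and 1, 1 and 2 counts in the remaining 3, all controls with an inhibitor. A count of 0 allows up to 3 counts, or between 0.121 and 0.187 CPM by library, and covers counting error only.

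Other CXC and CX3C chemokines did not move as a block. Of 11, 6 were tested, and 3 rose and 3 fell in senescence, where 68.5% of all genes were called. Their median log2 fold change was 1.38. CXCL12, a lymphocyte and stem cell attractant made by resting fibroblasts, had 78.4, 83.2 and 95.7 CPM in DMSO controls and 0, 1 and 0 counts in senescent libraries. CXCL10, an interferon-induced attractant of T cells, rose by 3.83 ± 0.26 (edgeR adjusted p = 5.56e-11) in senescence and then fell by 5.09 ± 0.30 with IMP1088 and fell by 5.04 ± 0.30 with DDD86481 (edgeR adjusted p = 2.07e-10 and 2.25e-10). CXCL11, a close relative of CXCL10 that acts on the same receptor, had 0.121, 0.322 and 0.149 CPM in DMSO controls and 1.85, 2.99 and 1.98 CPM in senescent libraries with DMSO, a rise of 3.46 ± 0.48 (edgeR adjusted p = 2.11e-06). With IMP1088 it had 0.0526, 0.279 and 0.112 CPM (edgeR adjusted p = 6.85e-06) and with DDD86481 0, 0 and 0.123 CPM (edgeR adjusted p = 1.37e-06), at most 5 counts in any of these libraries. It was therefore lower with both inhibitors than with DMSO, near the floor. CXCL16 had the opposite signs to CXCL10, at -2.45 ± 0.34 in senescence (edgeR adjusted p = 2.45e-06) and 2.20 ± 0.36 and 1.83 ± 0.38 with the inhibitors (edgeR adjusted p = 4.88e-05 and 0.000543). CX3CL1 was lower in all 3 comparisons, with -0.71, -1.81 and -1.72 (edgeR adjusted p = 0.00398, 1.02e-05 and 1.81e-05). With IMP1088 and with DDD86481, 1 of the 6 rose and 3 fell, where 44.4% and 43.2% of all genes were called, and the medians were -0.95 and -0.97.

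Among 10 inducing cytokines and receptors, 9 were tested. In senescence 5 rose and 3 fell (68.5% of all genes were called), with a median log2 fold change of 1.31, led by IL1B and IL1A, the ligands of the interleukin-1 receptor, with 12.15 ± 0.21 and 9.47 ± 0.28 (edgeR adjusted p = 4.87e-20 and 1.25e-16), and LIF with 3.52 ± 0.17 (edgeR adjusted p = 3.05e-13). IL1R1, their receptor, fell by 2.96 ± 0.14 (edgeR adjusted p = 1.43e-13). TNF had 0 counts in all control libraries and at most 2 counts in any senescent library. With IMP1088 1 rose and 4 fell (44.4% of all genes called), and with DDD86481 2 rose and 3 fell (43.2%), with medians of -0.02 and -0.10. When single libraries were dropped, 2 to 4 genes in place of 5 passed with IMP1088, with 2 lacking senescent DMSO replicate 2 or IMP1088 replicate 3 and 3 lacking DMSO replicate 1 or 3 or IMP1088 replicate 2. IL1B lost its fall in 5 of 6 cases and IL17RA in 4 of 6. With DDD86481 3 to 5 passed, with 3 lacking senescent DMSO replicate 1 or 3 or DDD86481 replicate 2 or 3, and LIF lost its rise in 5 of 6 cases and IL1B its fall in 4 of 6. IL17RC, a subunit of the interleukin-17 receptor, rose by 1.21 ± 0.10 and 1.22 ± 0.10 (edgeR adjusted p = 7.52e-09 and 7.70e-09). IL1RAP, the accessory chain of the interleukin-1 receptor, fell by 0.45 ± 0.16 and fell by 0.72 ± 0.16 (edgeR adjusted p = 0.0274 and 0.00125), the first not passed in 4 of 6 cases when a single library was dropped, at worst -0.37 with adjusted p = 0.113 lacking senescent DMSO replicate 2.

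Signal adaptors and kinases between these receptors and NF-kappaB numbered 11, all tested, of which 4 rose and 4 fell in senescence, a share near the 68.5% of all genes, with a median log2 fold change of 0.11. IRAK2, a kinase-like adaptor of the interleukin-1 receptor complex, rose by 3.21 ± 0.15 (edgeR adjusted p = 8.52e-14), IRAK4 fell by 1.52 ± 0.12 (edgeR adjusted p = 4.47e-10) and IRAK1 rose by 1.16 ± 0.09 (edgeR adjusted p = 6.61e-10). With IMP1088 3 rose and 2 fell (44.4% of all genes called), and with DDD86481 3 rose and 3 fell (43.2%), with medians of -0.15 and -0.08. Without senescent IMP1088 replicate 3 the 5 calls with IMP1088 became 3, and the rise of MAP3K7 was lost in 6 of 6 cases when a single library was dropped. IRAK3, which restrains this complex, rose by 2.33 ± 0.20 and 2.29 ± 0.20 (edgeR adjusted p = 2.57e-08 and 3.52e-08), from 10.0 CPM to 50.3 and 49.2 CPM. MYD88, the first adaptor of the receptor, fell by 0.84 ± 0.11 and fell by 0.85 ± 0.11 (edgeR adjusted p = 5.65e-06 and 5.03e-06).

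Of 12 promoter-binding factors, 7 rose and 2 fell in senescence (68.5% of all genes were called), with a median log2 fold change of 0.58, among them FOSL1 with 1.56 ± 0.15 (edgeR adjusted p = 1.51e-08), NFKB2 with 1.46 ± 0.10 (edgeR adjusted p = 1.01e-10) and CEBPD with -1.47 ± 0.16 (edgeR adjusted p = 5.55e-08). FOS, an AP-1 subunit, fell by 1.46 ± 0.51 (edgeR adjusted p = 0.0150), a call lost without senescent DMSO replicate 3 (-1.29, adjusted p = 0.0666). The inhibitors each raised 5 in senescent cells, with 2 lower with IMP1088 and 1 with DDD86481, where 44.4% and 43.2% of all genes were called, and the medians were 0.35 and 0.33. FOS rose by 1.72 ± 0.51 and 2.47 ± 0.50 (edgeR adjusted p = 0.00923 and 0.000473), and its partner JUNB by 0.90 ± 0.17 and 0.99 ± 0.17 (edgeR adjusted p = 0.000179 and 6.69e-05). ATF3 rose by 0.88 ± 0.26 and 0.96 ± 0.26 (edgeR adjusted p = 0.00977 and 0.00577), the first lost without senescent DMSO replicate 1 (0.67, adjusted p = 0.0649). CEBPB, which encodes C/EBP-beta, rose by 0.53 ± 0.14 and 0.81 ± 0.14 (edgeR adjusted p = 0.00424 and 0.000108). FOSL1 fell by 0.58 ± 0.15 and fell by 0.64 ± 0.15 (edgeR adjusted p = 0.00305 and 0.00157).

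Inhibitors and feedback genes of this pathway numbered 8, of which 6 rose and 1 fell in senescence (68.5% of all genes were called), with a median log2 fold change of 1.09, led by TNIP1 with 2.71 ± 0.09 (edgeR adjusted p = 6.29e-16), NFKBIZ with 1.90 ± 0.19 (edgeR adjusted p = 2.05e-08) and TNFAIP3 with 1.50 ± 0.17 (edgeR adjusted p = 1.96e-07). With IMP1088 2 rose and 1 fell (44.4% of all genes called), and with DDD86481 3 rose (43.2%), and both medians lay near 0. The fall with IMP1088, TNIP1, was lost in 2 of 6 cases when a single library was dropped (at worst -0.24, adjusted p = 0.0541, lacking senescent IMP1088 replicate 1), and the rise of NFKBIA with DDD86481 in 6 of 6 (at worst 0.47, adjusted p = 0.109, lacking senescent DMSO replicate 2). DUSP1, a phosphatase that switches off p38 and JNK kinases, rose by 1.28 ± 0.16 and 1.32 ± 0.16 (edgeR adjusted p = 2.97e-06 and 2.13e-06), and NFKBIB, an inhibitor of NF-kappaB, by 0.58 ± 0.15 and 0.73 ± 0.15 (edgeR adjusted p = 0.00477 and 0.000663).

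Factors of mRNA decay and stability act on elements near the end of many chemokine mRNAs, AU-rich stretches for the ZFP36 proteins and stem-loops for Regnase-1. Of 7, 2 rose and 3 fell in senescence, near the 68.5% of all genes called, with a median log2 fold change of -0.12. ZC3H12A, the endonuclease Regnase-1, rose by 4.15 ± 0.18 (edgeR adjusted p = 4.63e-14) and ZFP36L2 fell by 3.32 ± 0.11 (edgeR adjusted p = 4.92e-16). ZFP36, or tristetraprolin, fell by 1.48 ± 0.21 (edgeR adjusted p = 3.27e-06) in senescence and rose by 0.73 ± 0.21 and 0.83 ± 0.21 with the inhibitors (edgeR adjusted p = 0.00855 and 0.00364). Its relative ZFP36L1 rose by 0.92 ± 0.14 (edgeR adjusted p = 4.93e-06) in senescence and fell by 0.61 ± 0.14 and fell by 0.82 ± 0.14 with them (edgeR adjusted p = 0.00108 and 6.16e-05). With IMP1088 1 rose and 1 fell (44.4% of all genes called), and with DDD86481 3 rose and 1 fell (43.2%), with medians of 0.04 and -0.06. Without senescent DDD86481 replicate 1 the 4 calls with DDD86481 became 2.

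**Figure D5:**
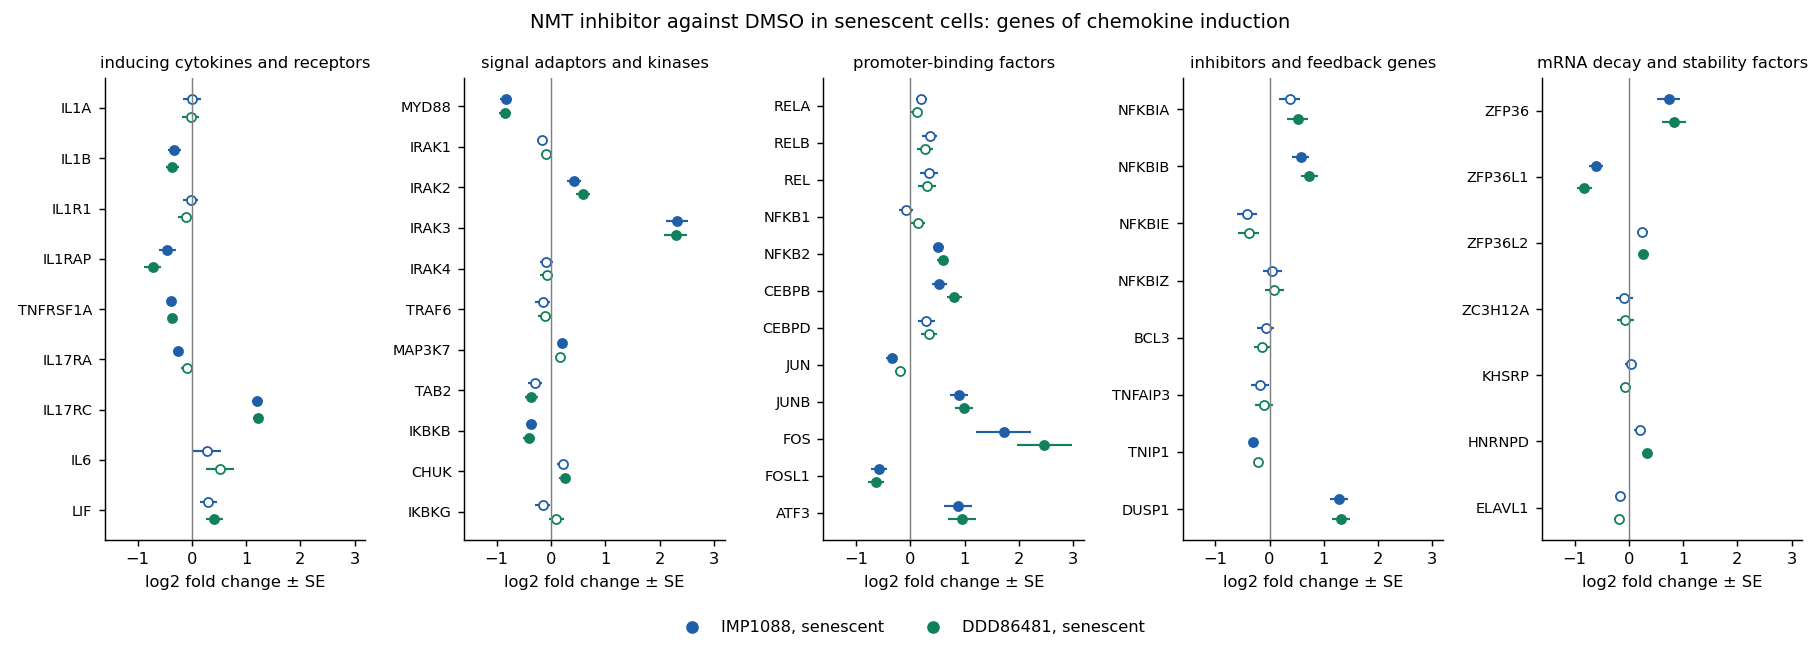
Log2 fold changes ± SE of each inhibitor against DMSO in senescent cells for genes of chemokine induction and mRNA decay, 1 panel per list; blue is IMP1088, green is DDD86481 and filled points had an edgeR adjusted p under 0.05. IRAK3 rises by 2.33 and 2.29 and MYD88 falls by 0.84 and 0.85, with the members of each list moving in both directions.

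Outside the cell, chemokines are held by syndecans and TNFAIP6 and trimmed by MMP8 and MMP9. Of these 7 partners, 3 rose and 3 fell in senescence (68.5% of all genes were called), with a median log2 fold change of -0.17. MMP9 went from 0.0837 ± 0.0671 CPM, near the floor, to 37.5 ± 8.68 CPM (edgeR adjusted p = 3.92e-14). SDC4, or syndecan-4, fell by 2.22 ± 0.15 (edgeR adjusted p = 5.33e-11) and rose by 0.58 ± 0.15 and 0.76 ± 0.15 with the inhibitors (edgeR adjusted p = 0.00287 and 0.000277). SDC3 fell by 1.74 ± 0.11 in senescence and fell by 0.94 ± 0.11 and fell by 0.96 ± 0.11 with them (edgeR adjusted p = 1.29e-11, 8.17e-07 and 7.04e-07). MMP8, a collagenase, rose by 1.18 ± 0.32 in senescence (edgeR adjusted p = 0.00253) and fell by 0.98 ± 0.32 with DDD86481 (edgeR adjusted p = 0.0183), the latter lost in 3 of 6 cases when a single library was dropped (at worst -0.77, adjusted p = 0.0896, lacking senescent DDD86481 replicate 1). With IMP1088 1 rose and 3 fell (44.4% of all genes called), and with DDD86481 1 rose and 4 fell (43.2%), with medians of -0.45 and -0.53. Without senescent DMSO replicate 1 the 4 calls with IMP1088 became 2.

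Genes of like pattern were sought by Pearson's r of log2 CPM, as a description, since libraries share groups and scaling. Over the 18 libraries, which form senescent and control clusters, r was near 1 for many genes. CXCL5 was closest to IL1B, MMP3 and IL1A (r = 0.999, 0.998 and 0.997), CXCL8 to CSF3, MMP3 and IL1A (0.997, 0.996 and 0.996), CXCL3 to FDFT1, MMP3 and RIPK2 (0.998, 0.997 and 0.996), CXCL1 to ZC3H12A, RALA and RIPK2 (0.993, 0.993 and 0.993), CXCL2 to KIF1A, TMED4 and CD55 (0.995, 0.995 and 0.995) and CXCL6 to VPS37B, CITED4 and GNG11 (0.983, 0.982 and 0.982). Within the 9 senescent libraries the leading genes were other ones: SP140, LAMB3 and DDX46 for CXCL2 (0.997, 0.996 and 0.994), RAP1GAP2, TRHDE and NT5C3B for CXCL6 (0.992, 0.990 and 0.989), TM9SF3, BLOC1S6 and CMPK1 for CXCL8 (0.989, 0.985 and 0.985), VAMP1, NR2F1 and C3orf62 for CXCL1 (0.952, 0.933 and 0.927), FZD1, RITA1 and NXPH3 for CXCL3 (0.934, 0.915 and 0.908) and SPOPL, RNF149 and FOPNL for CXCL5 (0.912, 0.885 and 0.885). Each list holds the highest r among all non-member genes tested, so the search alone can give high values over few libraries. How high was not computed. Counts of some of these genes were low, which limits their r. NXPH3 had at most 3 counts in any senescent library with an inhibitor. CSF3 had at most 3 counts and KIF1A at most 8 in any control library. Among the members themselves, r over the 9 senescent libraries ran from -0.93 for CXCL2 with CXCL6 to 0.89 for CXCL2 with CXCL8, and 9 libraries in 3 groups are few.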

How the data were processed

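Poly(A) RNA of IMR90 ER:RAS cells was sequenced by the authors in 18 libraries, and the authors deposited raw counts per gene symbol in 1 table, used here as it stands. Sources disagree on how the counts were made: the submitters' processing notes name hg38, DRAGEN, STAR 2.7.8a and DESeq2 1.32.0, while the study's methods name hg19 and TopHat. The counting tool, its strand setting and its treatment of reads with several matches were not given in the sources used here. DDD86481 columns carry the name PCLX001, which the labels pair with it.

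Groups came from the labels. The filter filterByExpr kept 14341 genes with 99.962% of counts. TMM-scaled counts were tested with edgeR 4.0.16 (quasi-likelihood test, R 4.3.3) in 1 fit of 18 libraries over 6 groups, with Benjamini-Hochberg adjustment over all genes tested and a threshold of 0.05. Standard errors came from the F statistic, and log2 CPM used a prior count of 2. The test was tried on simulated counts only for IMP1088 against DMSO in senescent cells. Their means came from the senescent DMSO libraries, and genes with low expected counts were left out. The low-count results in control cells and the interaction were therefore not covered. Alternatives were DESeq2 1.42.0, upper quartile scaling, no filter, only the groups compared, a replicate block and leaving out each library. Replicates differed by more than sampling noise (chi-square of at least 4.89 per gene). Same-numbered libraries deviated together in every pair (r of 0.394, 0.123 and 0.231, each over the limit of 0.1) when DMSO and IMP1088 controls were set together, so these were taken as paired from the correlations alone. In the other comparisons of the report at least 1 pair had a lower r.

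The 6 members and the gene lists were chosen with earlier results of these data known. Named list genes were the 2 to 4 of each list and comparison with the largest changes among genes with an adjusted p under 0.05 in senescence or with an inhibitor in senescent cells, and receptors whatever their values. Positions and upstream sequences are from RefSeq on GRCh38.p14. Transcript lengths, exon overlaps and shared windows are from GENCODE on GRCh37. Protein sequences were not used here.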

Additional observations from a re-analysis of the deposited data

Results flagged for a closer look

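CXCL3 and CXCL5 were picked out because the effect of an inhibitor differed between senescent and control cells by the interaction term. For CXCL3 the difference, senescent minus control, was -1.30 with IMP1088 and -1.62 with DDD86481 on the log2 scale, and for CXCL5 it was -0.98 and -0.92. Each pair of values shares the DMSO libraries, and the control counts behind them were low. No cause was tested.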

How the results depend on the processing

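Over 666 member fold changes under alternatives, 640 kept their side of the threshold, 11 lost it and 15 gained it. Of 54 results, 41 kept it in every alternative. No change that passed in either fit reversed its sign, but some uncalled changes did. With 1 library left out, CXCL8 in the interaction with DDD86481 ran from -0.48 to 0.33. CXCL1 with IMP1088 in control cells ran from -0.18 to 0.61, and CXCL5 with IMP1088 in senescent cells from -0.07 to 0.10. With only the groups compared, CXCL6 lost its call with IMP1088 in control cells (-0.71, adjusted p = 0.137). In senescent cells with IMP1088, 4 members were called in place of 2, where 55.4% of all genes were called in place of 44.4%. In control cells with IMP1088 and DDD86481, 2677 and 2820 genes were called in place of 4829 and 5242. Leaving out 1 library gave 3 to 5 member calls with DDD86481 in control cells (3 with all libraries, 5 without control DMSO replicate 3). It gave 1 to 3 in the interaction with IMP1088 (2 with all, 1 without control IMP1088 replicate 3). In the interaction with DDD86481 it gave 1 to 4 (2 with all, 4 without control DMSO replicate 3). There, 1 was left without control DMSO replicate 1 or 2, control DDD86481 replicate 1 or 3, or senescent DMSO replicate 1. The number of all genes called moved in these fits too. It ran from 3766 to 6292 of 14341 with DDD86481 in control cells (5242 with all libraries). In the interactions it ran from 2735 to 5307 with IMP1088 (3761 with all) and from 3432 to 5793 with DDD86481 (4351 with all). With no filter on low counts, CXCL8 passed with DDD86481 in senescent cells (0.50, adjusted p = 0.0133) and with both inhibitors in control cells (0.48, adjusted p = 0.0357 and 0.53, adjusted p = 0.0148), and CXCL6 in the interaction with DDD86481 (-0.72, adjusted p = 0.0164). With the replicate number as a block, CXCL6 passed in that interaction too (-0.72, adjusted p = 0.0497) and no other member call changed. For the paired control DMSO and IMP1088 libraries the block gave 5003 genes. Upper quartile scaling moved the median of all genes by -0.15 in the senescence comparison with DMSO, and by -0.10 and -0.11 with IMP1088 and DDD86481. The cause of these shifts was not tested. Depth limits CXCL2, CXCL3 and CXCL5 most in control cells, where the lowest count was 12.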
